A study of Mus musculus with 4 samples.

Results

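Small nucleolar RNAs and Cajal body RNAs were measured on 4 arrays of hepatic macrophage RNA as genes whose symbol starts with Snord, Snora or Scarna. A gene was taken where a probe set was annotated with that symbol and no other, and where a symbol had several such probe sets, 1 was selected on its mean log2 signal over the 4 arrays, the highest. This gave 68 genes of 30145 with a probe set of their own: 44 C/D box RNAs (Snord), 18 H/ACA RNAs (Snora) and 6 Cajal body RNAs (Scarna). All 68 are in the RefSeq gene table, 62 of them as snoRNA and 6 as guide RNA. These means cover all arrays alike, so the choice favours bright probe sets and no condition.

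The cells came from livers of male C57BL/6J mice with a disease model that the labels abbreviate CRCLM, in a series on VEGFC and liver metastasis of colorectal cancer. The treatment was an anti-CCL3 antibody, directed at a chemokine that recruits myeloid cells, or a control antibody of the same isotype. Each antibody group had 2 arrays, of fractions whose titles name F4/80 and CD11b, which mark macrophages and other myeloid cells, and end in the letter m or p. Neither the meaning of the letters is in the labels, nor how the cells were obtained, nor the ages, nor whether the arrays came from separate animals. With 1 array for each antibody in each fraction, p-values reflect only how these 4 arrays scatter, which may be technical, and their number limits the precision of all comparisons. In bulk RNA, fewer cells of a type and less RNA per cell cannot be told apart.

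Box C/D RNAs guide 2′-O-methylation of ribosomal RNA by the methyltransferase fibrillarin, and box H/ACA RNAs guide pseudouridylation by dyskerin. Small Cajal body RNAs carry either or both kinds of box and act on spliceosomal small nuclear RNAs in Cajal bodies. In mammals most are cut out of introns of protein-coding or noncoding host genes, many of which encode ribosomal proteins, so a snoRNA and its host can share a primary transcript. A few, such as U8 and U13, have promoters of their own and act in the cutting or base modification of ribosomal RNA precursors.

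The boxes that name these classes can be read where a snoRNA overlaps a microRNA hairpin, since the mature snoRNA sequences themselves were not used here. Of the RefSeq genes with these prefixes, 7 overlap an annotated hairpin, 3 of them up to the snoRNA's 3′ end, and 1, Snora19, is among the 68. The stretches below are RNA of the overlap (RefSeq, GRCm38.p6), read 5′ to 3′ on the hairpin's strand, with capitals on the letters ACA where they stand 3 bases before the end and on UGAUGA, the core of the C box, in the first 28 bases. Both were searched on that strand only, taken to be the snoRNA's as well, since the gene table gives none. They show the boxes where these letters were found, and the Cajal body RNA Scarna3b, the remaining overlap that reaches a 3′ end, has no ACA 3 bases before it. In Scarna3b the letters ACA stand 1 base before the annotated end, so this outcome depends on where that end is set. Snora36b, Scarna3b and Snord33 are not among the 68.
Snora19: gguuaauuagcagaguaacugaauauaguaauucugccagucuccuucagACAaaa
Snora36b: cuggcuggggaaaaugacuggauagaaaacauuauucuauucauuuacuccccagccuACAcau
Scarna3b: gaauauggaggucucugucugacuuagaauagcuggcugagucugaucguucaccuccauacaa
Snord33: agcuugUGAUGAgacaucucccacucau
The Snora19 stretch is the whole of the annotated gene, 56 bases at chr19:60774330-60774385 on the minus strand, within the hairpin of Mir3084-2 and the interval of Eif3a, a translation initiation factor gene. The Snora36b stretch holds the last 64 bases of the gene at chr1:185242975-185243038 on the plus strand, in the hairpin of Mir664. The Scarna3b stretch, also 64 bases, lies at chr12:80391614-80391677 on the minus strand, in the hairpin of Mir1843a. The Snord33 stretch holds the first 28 bases at chr7:45126918-45126945 on the minus strand, in the hairpin of Mir5121 and in Rpl13a. Of 1005 mouse hairpins, 1.59% have ACA 3 bases before their end and 0.796% have UGAUGA in the first 28 bases, and such matches are a description of the letters only.

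Snora19 had a log2 signal of 6.95 in fraction m and 7.0 in fraction p under anti-CCL3 antibody, and of 6.49 in m and 6.87 in p under isotype control. All sets of 4 values below follow this order of arrays. Its probe set has the same values as 1 other, which is annotated with the hairpin as well, so RNA of the snoRNA and of the hairpin cannot be told apart. The probe set shared by Mir664 and Snora36b read 6.35, 5.73, 6.05 and 6.50. The probe set shared by Mir5121, Rpl13a, Snord32a, Snord33 and Snord34 read 7.12, 6.87, 6.90 and 7.18. Snord33 and its neighbours in Rpl13a are known for their response to lipid and oxidative stress. The paired differences of their shared probe set lay between -0.31 and 0.28, but RNA of these snoRNAs and of Rpl13a cannot be told apart in it.

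Most of the 68 RNAs gave signals in the range of the array's negative controls. Mean log2 signal over the 4 arrays had a median of 6.25 for Snord (quartiles 5.35 and 6.85, range 4.25 to 15.9), of 6.64 for Snora (quartiles 5.61 and 7.23, range 5.07 to 9.64) and of 6.03 for Scarna (range 4.32 to 9.41). The 5222 negative-control probe sets had a median of 6.34 with quartiles of 5.27 and 7.84. Protein-coding genes had a median of 6.08 and all named genes of 6.16, so a signal within the range of the controls is not particular to these RNAs. Of the 68, 11 exceeded the upper quartile of the negative controls, 16.2%, against 2.46% of 18312 protein-coding genes and 8.69% of all named genes. Of the 68, only Snord61 and Snord4a lay above 11.6, the negative controls' 95th percentile. Probe sets differ in affinity, so these are comparisons of distributions, not of the amounts of single RNAs.

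The RNAs with the 3 prefixes were dimmer as a set than the other genes that RefSeq lists as snoRNA. Those 893 genes had a median of 7.61, and 45.4% exceeded the upper quartile of the negative controls, as did 44.4% of 914 small nuclear RNA genes, whose median was 7.48. Medians on the single arrays were 5.91, 6.06, 5.87 and 6.15 for Snord, 6.52, 6.27, 6.51 and 6.88 for Snora, and 6.11, 6.25, 5.79 and 5.84 for Scarna. No array held the highest median of all 3 classes.

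**Figure D1:**
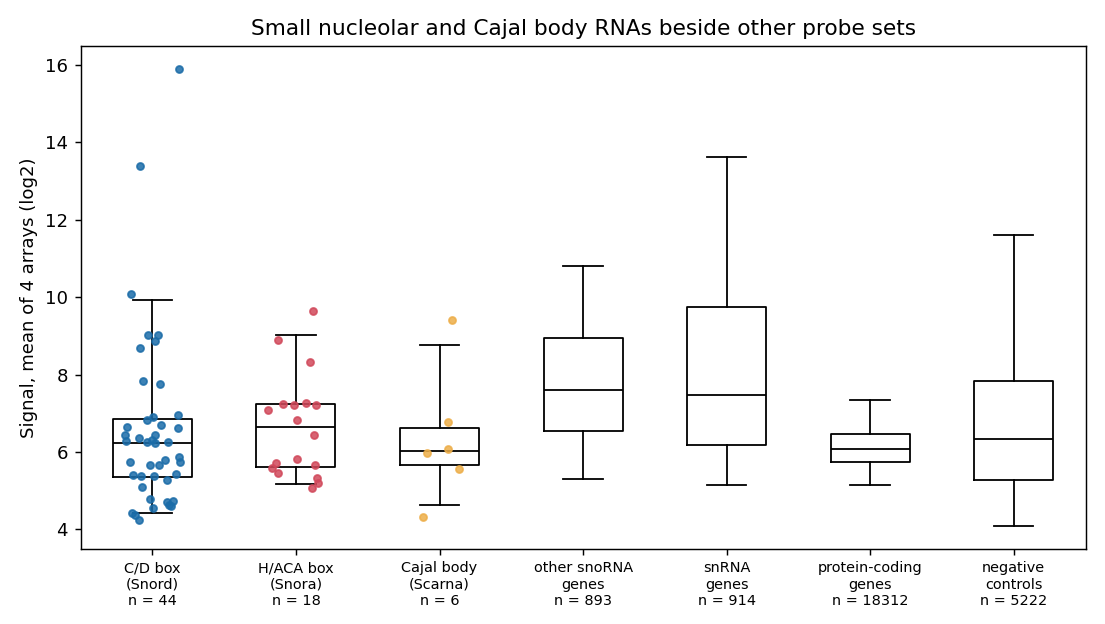
Mean log2 signal over 4 arrays of the Snord, Snora and Scarna RNAs (dots are single genes) beside other snoRNA genes, small nuclear RNA genes, protein-coding genes and negative controls; boxes give median and quartiles and whiskers the 5th and 95th percentiles. The 3 classes have medians of 6.25, 6.64 and 6.03, below those of the other small RNA genes, and Snord61 and Snord4a lie above the rest of their class.

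Snord61, which lies in Rbmx, the gene of an RNA-binding protein of the hnRNP family, was the brightest Snord at 15.99, 16.44, 15.97 and 15.22. Fraction p under isotype control was lowest, and the arrays of the antibody groups did not overlap, by 0.03 in fraction m. Snord4a in Rpl23a, a gene of the large ribosomal subunit, read 14.13, 12.53, 13.95 and 12.98, with both arrays of fraction m above both of fraction p. Its neighbour in the same gene, Snord42a, read 9.96, 9.99, 9.31 and 11.11, with the isotype control array of fraction p highest. Snord93 read 8.58, 9.42, 9.66 and 8.43, so its antibody difference had opposite signs in the fractions, -1.08 in m and 0.99 in p.

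The brightest Snora RNAs varied less between arrays. Snora47, in Zbed3, read 9.54, 9.72, 9.57 and 9.71. Snora41, in Eef1b2, a translation elongation factor gene, read 8.75, 8.65, 8.97 and 9.25. Snora21, in Rpl23, read 8.18, 8.38, 8.13 and 8.57, and Snora31, in Tpt1, 7.01, 7.44, 7.33 and 7.27. At the dim end, Snord49a read 4.19, 4.65, 4.36 and 3.79 and Snord45b 4.96, 4.16, 4.28 and 4.14, at percentiles 6.74 and 8.37 of the negative controls. Snora35, which lies in the serotonin receptor gene Htr2c and is known from brain, was the dimmest Snora at 5.02, 5.36, 4.96 and 4.92, and Htr2c itself had a mean of 5.17.

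The 68 RNAs differed more between arrays than most genes. The range over the 4 arrays had a median of 0.73 on the log2 scale and exceeded 1 for 20 of 68 RNAs, 29.4%, against a median of 0.32 and 10.1% over all named genes and a median of 0.24 and 3.78% over protein-coding genes. Other snoRNA genes and small nuclear RNA genes also had wide ranges, with 39.0% and 55.4% over 1. By class, the range exceeded 1 for 16 of 44 Snord, 3 of 18 Snora and 1 of 6 Scarna, and 10 RNAs exceeded 2. The 16 RNAs of up to 60 bases had a median range of 1.0, the 32 of 61 to 100 bases 0.72, and the 20 longer ones 0.61. Across the 68 genes Spearman's rho of annotated length with range was -0.33 and with mean signal -0.08, a description over genes that share the same 4 arrays.

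**Figure D2:**
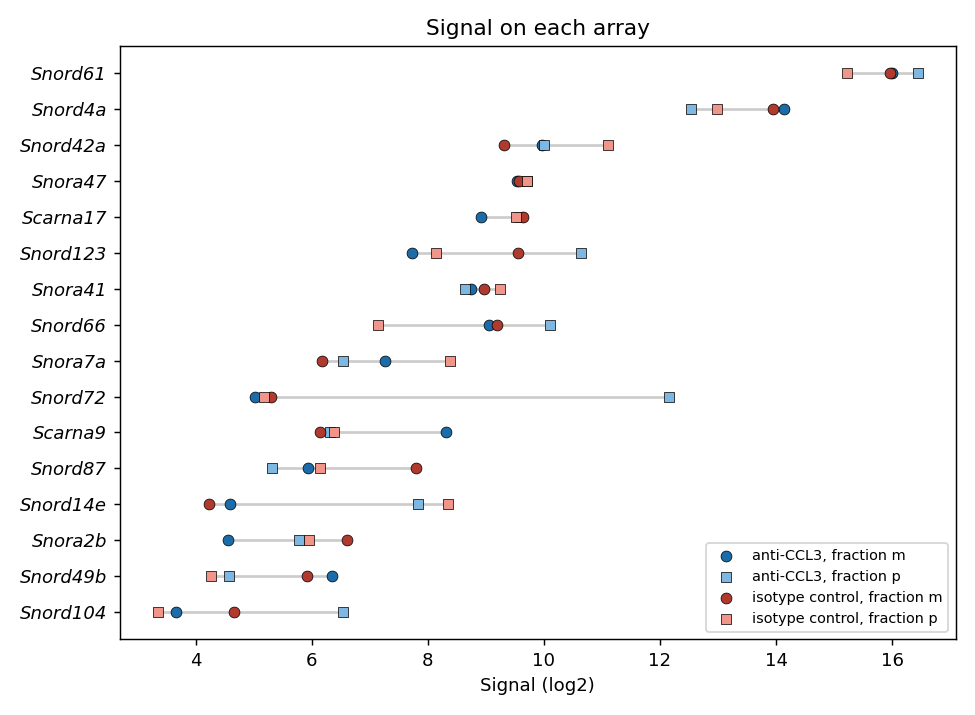
Log2 signal on each of the 4 arrays for 16 RNAs: the 10 whose values span more than 2, and Snord61, Snord4a, Snord42a, Snora47, Snora41 and Scarna17. Snord14e is high in both arrays of fraction p, Snord72 in 1 array only (12.16 against 5.02 to 5.29), and Snora47 stays between 9.54 and 9.72.

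The antibody comparison asked how the anti-CCL3 antibody bore on these RNAs, with fraction as a second term of the fit. None of the 35 RNAs tested (23 Snord, 10 Snora, 2 Scarna) passed a Benjamini-Hochberg adjusted p of 0.05 in limma, where 0% of 15073 genes passed. The smallest adjusted p from limma among them was 0.536, for Snora78. At an unadjusted p under 0.05, 1 RNA was higher and 3 were lower under anti-CCL3 antibody, against 6.46% of all genes tested higher and 1.38% lower. The 33 RNAs not tested had means under the median of all genes, 6.16; the nearest tested was Snord14e at 6.24 and the nearest not tested Scarna10 at 6.08. Snord14e passed only through fraction p, and Snord72, Snord82 and Snord87 each only through 1 array, with the other 3 under 6.16, so the test of these RNAs depends on the value that sets them apart.

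Both arrays under anti-CCL3 antibody lay above both isotype control arrays for 11 of 68 RNAs and below them for 11, against 18.9% higher and 13.0% lower over all named genes. In the H/ACA class 7 of 18 Snora lay below (38.9%) and 2 above (11.1%), while 8 of 44 Snord lay above and 4 below, and 1 of 6 Scarna lay above. The 7 H/ACA RNAs below were Snora2b, Snora16a, Snora20, Snora30, Snora41, Snora68 and Snora78, named after their values were seen. The antibody difference averaged over both fractions was below 0 for 14 of 18 Snora, with a class median of -0.26, and the medians were -0.10 in m and -0.18 in p. The Snord median was 0.08, from -0.03 in m and 0.21 in p, and the Scarna median 0.19, from -0.03 and 0.07. Over all named genes the median was 0.02. The difference between classes was not tested, and the sign was the same in both fractions for 32 of 68 RNAs, 47.1%, against 51.5% of all named genes.

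**Figure D3:**
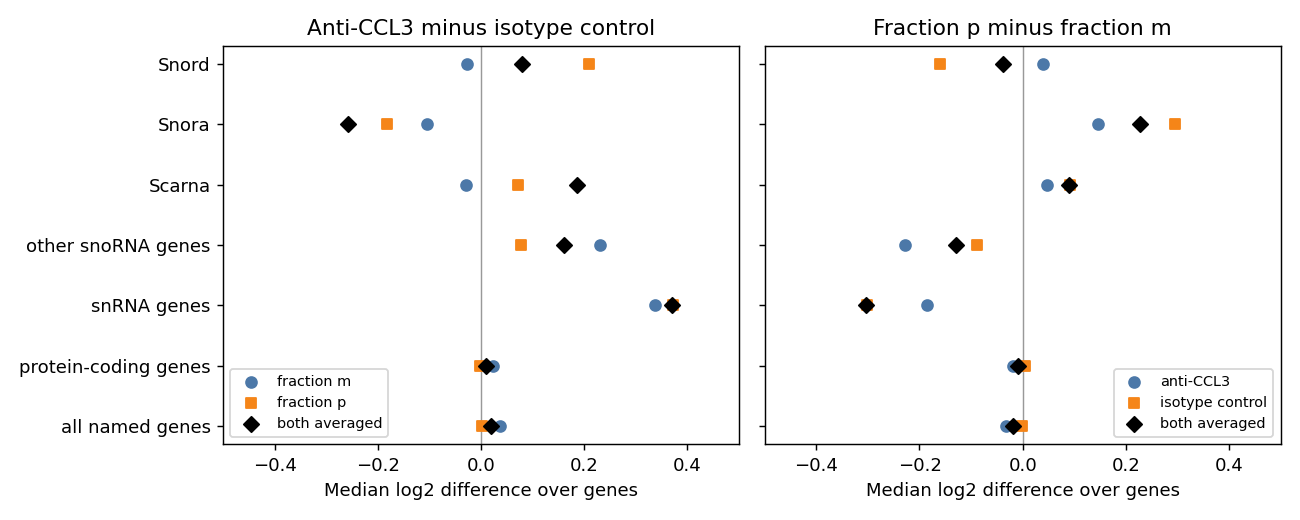
Median log2 difference of each gene set, for antibody (anti-CCL3 minus isotype control) and for fraction (p minus m), in each pair of arrays and averaged over both pairs. Snora stands at -0.26 for antibody and 0.23 for fraction, while all named genes stand at 0.02 and -0.02.

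Small nuclear RNA genes had a median antibody difference of 0.37 and the other snoRNA genes of 0.16, and the latter turned to -0.02 after quantile normalisation. The Snora median kept its sign under each normalisation run, at -0.32 (quantile), -0.28 (median centring) and -0.30 (cyclic loess).

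Snora78, an H/ACA RNA in the overlapping intervals of Snhg9 and the ribosomal protein gene Rps2, read 6.66, 7.22, 7.33 and 7.72. Both arrays under anti-CCL3 antibody lay below both isotype control arrays, by -0.67 in fraction m and -0.50 in p, and the fitted difference was -0.59 ± 0.12 (limma SE, 2 arrays a group). Snord87, in Snhg6, read 5.94, 5.32, 7.80 and 6.14, a fitted difference of -1.34 ± 0.34 (limma adjusted p = 0.59). The isotype control array of fraction m, through which alone it was tested, stood 1.67 above the next, and without it the difference was -0.82. Snord15a in Rps3, a C/D RNA that guides methylation of 28S ribosomal RNA, read 6.49, 5.96, 6.83 and 6.46, a difference of -0.42 ± 0.12 (limma adjusted p = 0.626). Its groups overlapped, since fraction m under anti-CCL3 antibody lay above fraction p under isotype control.

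Snora41, with its values above, had a difference of -0.41 ± 0.16, which became -0.71 after quantile normalisation. Snord82, in the nucleolin gene Ncl, read 5.89, 5.86, 6.09 and 7.22, a difference of -0.78 ± 0.37. It was tested only through the isotype control array of fraction p, and the difference was -0.20 in fraction m and -1.35 in p. Snora75, the H/ACA RNA of the same host, lay on the other side, at 7.61, 7.11, 7.20 and 6.99, a difference of 0.27 ± 0.14 with overlapping groups.

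Of the RNAs with higher values under anti-CCL3 antibody, Snord69 in Gnl3, the gene of nucleostemin, read 9.11, 8.73, 8.51 and 8.38. Its groups did not overlap, and the difference was 0.47 ± 0.14 (limma adjusted p = 0.626), or 0.20 after quantile normalisation. Snora19 differed by 0.29 in the same direction, from 0.46 in fraction m and 0.13 in p. Snord61 differed by 0.62 ± 0.38, from 0.03 and 1.22, and by 0.14 after quantile normalisation.

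**Figure D4:**
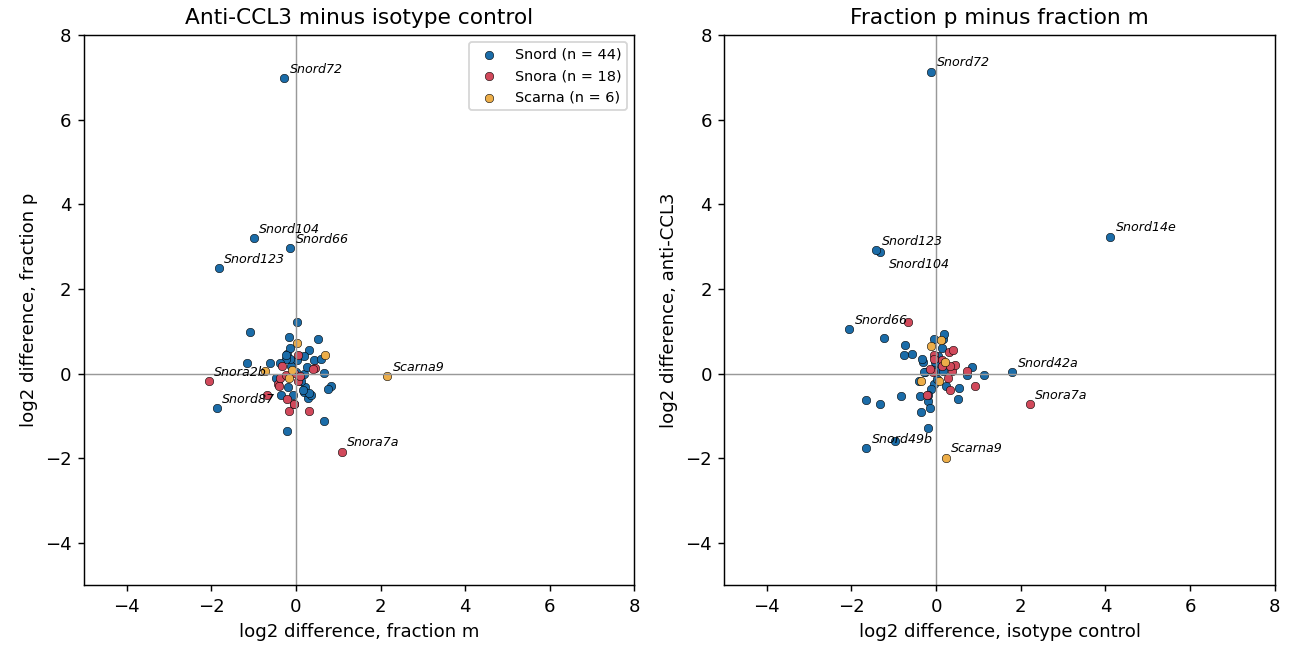
Paired log2 differences of each RNA: left, anti-CCL3 minus isotype control in fraction m (x) against fraction p (y); right, fraction p minus m under isotype control (x) against anti-CCL3 antibody (y). Snord14e lies high on both axes of the right panel (4.12 and 3.23), and Snord72 on 1 axis of each (6.98 and 7.14).

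The fraction comparison set fraction p against fraction m, with antibody as the other term. Averaged over both antibodies, its widest difference was that of Snord14e, a copy of U14, the C/D RNA needed for maturation of 18S ribosomal RNA. Snord14e read 4.59, 7.83, 4.22 and 8.34. Both arrays of fraction p stood far above both of fraction m, by 3.23 under anti-CCL3 antibody and 4.12 under isotype control. The fitted difference was 3.67 ± 0.29, the highest averaged fraction difference of all 30145 genes, and its adjusted p in limma was 0.396. Snord14e was tested only through its values in fraction p. Without the pairing of arrays by antibody, the adjusted p was 0.789.

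The identity of that signal has limits. The Snord14e probe set has no chromosome in its identifier, while the gene lies in Hspa8, the constitutive heat shock protein 70 gene, on chromosome 9. A second probe set, annotated with Hspa8, Snord14c, Snord14d and Snord14e together, read 6.79, 6.75, 6.75 and 6.75. The probe set annotated with Hspa8 alone has a chromosome 14 identifier and read 11.03, 9.49, 12.12 and 7.78, a fraction difference of -2.94. The 3 probe sets thus differed in direction and size. Snord14a, the U14 copy in Rps13, read 6.43, 6.17, 6.23 and 6.17, with fraction differences of -0.25 and -0.05.

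No RNA passed an adjusted p of 0.05 in limma in the fraction comparison either, against 0% of all genes tested. At an unadjusted p under 0.05, 2 of 35 were higher in fraction p, Snord14e and Snora78, and 3 were lower, Snord4a, Snord91a and Snord15a, against 1.69% and 7.60% of all genes tested. Snord14e passed the filter only through fraction p, where it is high, so its place in this count depends on the filter. Both arrays of fraction p lay above both of fraction m for 14 of 68 RNAs and below for 12, against 16.0% and 20.6% of all named genes. By class, 5 of 18 Snora lay above and 1 below, 7 of 44 Snord above and 10 below, and 2 of 6 Scarna above and 1 below. The sign was the same under both antibodies for 36 of 68, 52.9%, against 54.1%.

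Class medians of the fraction difference were 0.23 for Snora, with 14 of 18 above 0, -0.04 for Snord and 0.09 for Scarna, beside -0.02 for all named genes. In the anti-CCL3 pair and the isotype control pair they were 0.15 and 0.30 for Snora, 0.04 and -0.16 for Snord, and 0.05 and 0.09 for Scarna. The Snord median turned to 0.03 after quantile normalisation, while that of Snora stayed above 0, at 0.28 (quantile), 0.24 (median centring) and 0.27 (cyclic loess). For small nuclear RNA genes it was -0.30, and -0.16 (quantile) or -0.18 (cyclic loess) after normalisation. The antibody and fraction differences of a class are computed from the same 4 arrays, each of which enters both.

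Of the RNAs with lower values in fraction p, Snord4a differed by -1.29 ± 0.22 (limma adjusted p = 0.467), from -1.60 under anti-CCL3 antibody and -0.97 under isotype control, and by -0.65 after quantile normalisation. Snord91a, in the interval shared by Srr and Tsr1, read 7.02, 6.31, 7.40 and 6.07. Its fractions did not overlap, and the difference was -1.02 ± 0.22 (limma adjusted p = 0.472). Snord87 differed by -1.15 ± 0.34, with -0.62 under anti-CCL3 antibody and -1.67 under isotype control. It was tested only through the isotype control array of fraction m, so this difference depends on the value that passed the filter. Snord15a differed by -0.45 ± 0.12 (limma adjusted p = 0.515), and Snord90 in Rc3h2, with 7.06, 6.15, 6.89 and 6.53, by -0.64 ± 0.20. Snord49b, too dim to be tested, read 6.34, 4.58, 5.91 and 4.26, so both arrays of fraction m lay above both of fraction p, by -1.71 on average. Snord49a from the same noncoding host, 2410006H16Rik, differed by -0.06.

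The other RNAs picked for higher values in fraction p, by their smaller paired difference, had smaller differences than Snord14e. Not picked by that rule, Snord42a differed by 0.92 ± 0.55, from 0.03 under anti-CCL3 antibody and 1.80 under isotype control. Snord72 averaged 3.51 through 1 array. Snora78 differed by 0.48 ± 0.12 (limma adjusted p = 0.514), Snora21 by 0.32 ± 0.13 and Snora47 by 0.16 ± 0.11. After quantile normalisation Snora21 differed by 0.56 and Snora47 by 0.52. Snora69, in Rpl39, read 6.98, 7.05, 7.04 and 7.76, so its difference of 0.39 ± 0.23 came mainly from the isotype control pair, 0.73, against 0.06 under anti-CCL3 antibody.

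In 10 of 68 RNAs, 14.7%, a single array stood apart from the other 3 by more than 1, against 3.48% of all named genes. The array was that of fraction m under anti-CCL3 antibody for 2, of fraction p under anti-CCL3 antibody for 3, of fraction m under isotype control for 1 and of fraction p under isotype control for 4. The widest was Snord72, in the ribosomal protein gene Rpl37, at 5.02, 12.16, 5.29 and 5.18. It was high on the array of fraction p under anti-CCL3 antibody only, where its fraction difference of 7.14 ranked first among all named genes and its antibody difference of 6.98 second. The additive fit spread this over both terms, 3.35 ± 2.21 for antibody and 3.51 ± 2.21 for fraction, and the other pairs gave -0.27 and -0.11.

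Other RNAs were high or low on 1 array as well. Snord104, too dim to be tested, read 3.66, 6.54, 4.66 and 3.34, highest on the same array as Snord72. Snord123, in the host Snhg18, read 7.73, 10.64, 9.55 and 8.14, so its antibody difference was -1.82 in m and 2.50 in p. Snord66, in Eif4g1, the gene of a translation initiation scaffold, read 9.06, 10.11, 9.19 and 7.14, and its antibody difference was -0.13 in fraction m and 2.97 in p. Snora2b, also too dim to be tested, read 4.56, 5.78, 6.61 and 5.96, low under anti-CCL3 antibody in fraction m. Snora7a, in Rpl32, read 7.26, 6.54, 6.17 and 8.38, highest on the isotype control array of fraction p.

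All 6 Cajal body RNAs had values on each array, and 2 were tested. Scarna17 was the brightest at 8.92, 9.58, 9.65 and 9.52. Its groups overlapped in both comparisons, and the differences were -0.33 ± 0.26 for antibody and 0.26 ± 0.26 for fraction. Scarna9, a guide for the U2 small nuclear RNA in the host Cep295, read 8.31, 6.32, 6.15 and 6.38. It was high on the array of fraction m under anti-CCL3 antibody and stayed within 0.23 on the other 3, so its antibody difference of 1.05 ± 0.68 became -0.06 without that array.

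Scarna10, the U85 RNA that carries both kinds of box and guides modification of U5, read 5.87, 6.66, 5.83 and 5.94. Scarna6, the U88 RNA in Atg16l1, read 6.35, 6.18, 5.67 and 5.74, with both arrays under anti-CCL3 antibody above both isotype control arrays and an average difference of 0.56. Scarna2, a guide for U2 that lies in no annotated host, read 5.66, 5.49, 5.75 and 5.40. Scarna8, the H/ACA RNA U92 in Haus6, was the dimmest at 4.12, 4.38, 4.28 and 4.48. Scarna2 had both arrays of fraction m above both of fraction p, and Scarna8 and Scarna10 the reverse.

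The RNAs that act in ribosomal RNA processing, U14 copies included, had means below the median of the negative controls. Snord118, the U8 RNA of large-subunit processing, read 4.77, 5.58, 4.97 and 5.12. Snord13, the U13 RNA that acts in acetylation of 18S ribosomal RNA, read 4.57, 4.64, 4.58 and 4.61, with a fraction difference of 0.05. Snora73a and Snora73b, the U17 RNAs of 18S processing in Snhg3, read 5.25, 5.42, 5.16 and 5.48, and 4.86, 5.38, 5.10 and 5.41. On the probe sets kept, both U17 RNAs, U8, U13 and Snord14e had both arrays of fraction p above both of fraction m. So had 16.0% of all named genes, while Snord14a had them below. The unused probe sets of Snora73b and U13 had them above as well, and that of U8 did not. A probe set shared by Snhg3 and Snora73a had fraction differences of -0.10 under anti-CCL3 antibody and 0.02 under isotype control. Snord35a, in Rpl13a, read 4.72, 4.78, 4.45 and 4.62. Snord64, from the imprinted Snhg14 locus, read 6.02, 5.86, 5.84 and 5.44. Of 42 symbols listed for the Gas5, Rpl13a and Snhg1 introns, ribosomal RNA processing and the imprinted clusters, 8 had a probe set of their own. Another 45 probe sets list a Snord, Snora or Scarna RNA among several symbols, and these had a median of 6.44, and 4 exceeded the upper quartile of the negative controls.

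Another probe set was available for 4 RNAs. The unused probe set of Snord58b read 6.44, 5.66, 6.02 and 4.84 and the kept one 6.36, 5.83, 5.83 and 5.0, so both put anti-CCL3 antibody above isotype control in each fraction. For Snord118 the unused one read 4.68, 5.11, 5.17 and 4.92, and its fraction difference was 0.43 under anti-CCL3 antibody and -0.25 under isotype control. For Snora73b and Snord13 the unused ones had means of 4.63 and 4.58. The chromosome of the kept probe set matched RefSeq for 64 of 68 RNAs, while Snora73a, Snora73b and Snord14e have none in their identifier and Snord58b another than its gene.

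By RefSeq intervals, without regard to strand, 64 of 68 RNAs lie within another gene, 51 of these genes protein-coding and 13 long noncoding, and 19 RNAs lie in ribosomal protein genes. Snord118, Snord13, Scarna2 and Snord89 lie in none. Of the 64 hosts, 39 had a probe set of their own, with a median of 6.02 (range 5.04 to 10.1). In 41 pairs of RNA and host, the antibody difference had the same sign in 22 and the fraction difference in 23. The host of Snord61, Rbmx, read 6.47, 6.82, 6.41 and 6.36, and that of Snora41, Eef1b2, 5.38, 5.37, 5.29 and 5.60. None of the 14 hosts tested passed in limma in either comparison, at an adjusted or an unadjusted p of 0.05.

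RNAs within the interval of the same host can share a primary transcript, which was not tested here. Their fraction differences are given side by side. In Rpl23a, the fraction difference was 0.92 for Snord42a and -1.29 for Snord4a. In Ncl it was -0.36 for Snora75 and 0.55 for Snord82, and in Rpl3 -0.03 for Snord43 and 0.51 for Snord83b. In Nop58 it was 0.10 for Snord11 and 0.37 for Snord70, and in Snhg3 0.25 for Snora73a and 0.41 for Snora73b.

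The protein genes of the particles lay on both sides of the middle of all named genes, whose quartiles were 5.75 and 6.71. Of the C/D core list, Fbl, the gene of fibrillarin, had a mean of 7.75 and Nop58 of 6.31. The 6 H/ACA core genes, dyskerin's gene Dkc1 among them at 6.80, had a median of 6.48 (range 4.79 to 7.01). The 8 Cajal body genes had a median of 5.86 and the 7 assembly factor genes of 6.06. Of 2, 4, 1 and 3 tested in these lists, 0 passed in either comparison in limma, adjusted or at an unadjusted p under 0.05. Of 10 other small noncoding RNAs tested, 0 passed after adjustment. At an unadjusted p under 0.05 the telomerase RNA Terc, itself an H/ACA RNA, differed by 0.44 ± 0.12 for antibody, Rn7sk by 0.46 ± 0.12 and Rny1 by -0.50 ± 0.12, and Rny3 by 0.66 ± 0.11 for fraction.

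The labelled cell type was set against 14 macrophage markers. Their median was 6.17 (range 5.35 to 8.40), inside the distribution of the negative controls, with 1, Marco, above its upper quartile. Summarised by array, the list had medians of 6.06, 6.28, 6.23 and 6.11. Medians were 6.17 for hepatocyte, 6.49 for T cell, 6.69 for B cell, 7.36 for neutrophil, 6.16 for sinusoidal endothelial and 5.94 for colorectal tumour markers, which are values of different probe sets and set no order of cell types. The part of the cell mixture in the differences above was not tested.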

How the data were processed

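Total RNA of 4 samples was amplified and labelled with biotin for arrays, per the labels' protocols. The authors deposited a log2 signal for every probe set, made with RMA and Affymetrix Expression Console according to the submitters' processing notes, in versions not given in the sources used here. Of 72688 probe sets, 65956 were transcript clusters, of which 30604 had 1 symbol and 2146 several in GEO's platform annotation. The brightest probe set by mean was kept for 30145 genes, with no normalisation added. Genes with a mean at or above the median, 6.16, were tested, 15073 in number. limma 3.58.1 in R 4.3.3 fitted antibody and fraction as additive terms with empirical Bayes moderation (1 residual degree of freedom, prior 1.69), and Benjamini-Hochberg adjustment ran over all genes tested, with a threshold of 0.05. The size of the antibody estimates was checked on simulated data with added antibody differences, while the fraction term and the p-values were not checked. Standard errors near 0.11 are set by the prior.

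The residual degree of freedom holds interaction and noise together. The fraction term pairs the arrays across antibody groups, and the labels give no other pairing. Hosts were RefSeq genes whose interval contains the RNA, without strand, since the gene table has none. Microarray depth is not counted in reads.

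Named RNAs were, for each comparison and direction, the 5 tested with the largest smaller paired difference of 1 sign. To these came the 4 with the largest disagreement of opposite sign, the 4 brightest and 2 dimmest Snord and Snora, each Scarna and the listed families, 40 RNAs in all, of which 1 is not reported here. Others were chosen after their values were seen. The RNAs, gene lists and cell type markers were chosen with earlier results of these data known. Alternatives were quantile, median and cyclic loess normalisation, the mean over probe sets, other filters, no replicate block, and leaving out each array.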

Additional observations from a re-analysis of the deposited data

Results flagged for a closer look

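Differences of opposite sign, each at least 1 in size, were found for 3 C/D RNAs and 1 H/ACA RNA, with 1 array on each side, and the disagreement was not tested. Snord104 had a fraction difference (p minus m) of 2.88 under anti-CCL3 antibody and -1.32 under isotype control. Its mean of 4.55, at percentile 10.9 of the negative controls, was too dim for it to be tested. Snord123 had an antibody difference of -1.82 in m and 2.50 in p, and a fraction difference of 2.91 under anti-CCL3 antibody and -1.41 under isotype control. Snord66 had a fraction difference of 1.05 under anti-CCL3 antibody and -2.05 under isotype control. The H/ACA RNA Snora7a had an antibody difference of 1.09 in m and -1.84 in p.

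Probe sets with several symbols, which were left out of the comparisons, held signal above the upper quartile of the negative controls in 4 cases. Of these, 3 probe sets annotated with Gm26504, Ipw and Snord116l1 or Snord116l2, from the imprinted cluster known for expression in brain, shared the same values, with a mean of 10.3 from 12.2, 9.06, 9.18 and 10.7. The antibody difference was 3.04 in fraction m and -1.65 in fraction p. Another, annotated with Gm3362 and 8 further symbols, had a mean of 8.98.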

How the results depend on the processing

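Of 460 alternative values for 57 results, 444 were counted as unchanged and 16 as moved, and 0 RNAs were called under any setting run. A refitted value of a single RNA counted as unchanged if it kept its sign and was not called, whatever its size. The fraction difference of Snora47 so counted at 0.52 after quantile normalisation, against 0.16. Other values counted so where they moved by less than the spread, and counts of RNAs where they stayed within a set ratio. For a single RNA the spread came from its own paired differences, so a value with 1 array left out always fell within it. The count of 444 therefore cannot show whether single RNAs depend on 1 array. For a class the spread came from the medians of the same pairs of arrays. The Snord antibody median thus counted as unchanged at both -0.03 and 0.21 with 1 array left out, although its sign differed. After median centring, 5 Snord RNAs lay above for antibody, against 8. After quantile normalisation the Snora antibody median was -0.32, and after quantile normalisation or cyclic loess 1 Snora RNA lay above for antibody and 1 Scarna RNA below. Leaving out 1 array at a time gave antibody medians of -0.18 to -0.10 for Snora and -0.029 to 0.072 for Scarna, and a Scarna fraction median of 0.048 to 0.092. These fits have no residual degrees of freedom and gave no test. They were run for named RNAs, most of them picked for 1 sign in both pairs, and of these Snord72, Scarna9, Snord104, Snord123 and Snord66 changed sign. Over all 68 RNAs, only 32 for antibody and 36 for fraction had the same sign in both pairs. The fit without the pairing by fraction or antibody, that is with no replicate block, had smallest adjusted p-values in limma of 0.958 for antibody and 0.789 for fraction. It called 0 of 35 RNAs and 0 of 15073 genes in either comparison at an adjusted p of 0.05. Without a filter, 68 RNAs were tested, and 0 of them and 0 of 30145 genes passed an adjusted p of 0.05 in limma in either comparison. Over the settings run, the smallest adjusted p of an RNA ranged from 0.454 to 0.958 for antibody and from 0.340 to 0.789 for fraction. The causes of these shifts were not tested. Signals near the negative controls limit what these arrays can show for most of the RNAs.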
